A study of Mus musculus with 4 samples.

Results

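The matrix metalloproteinases (MMP), the ADAM proteases, the ADAMTS proteases and the ADAMTS-like proteins were examined in EpH4 cells. Members were the genes whose symbol is Mmp, Adam, Adamts or Adamtsl followed by a number, with a letter allowed after the number for the Mmp and Adam genes. Inhibitors of these enzymes were left out of the members. The rule took 81 of the 25413 genes in the count table: 23 MMP, 34 ADAM, 19 ADAMTS and 5 ADAMTSL genes. EpH4 is a mouse mammary epithelial cell line, here of wild-type genotype and grown in 2D culture. There were 2 libraries of cells given PM2.5, fine particles of polluted air, and 2 libraries labelled Control. The labels give no dose and no exposure time, and 1 batch value throughout. Nothing in them states that replicates were separate cultures, so p-values measure the spread between these libraries, which may be technical. All values come from 1 cell line.

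The members are zinc-dependent enzymes of the metzincin type, apart from the ADAMTS-like proteins and some ADAM proteins that lack a working catalytic site. MMPs are made as inactive precursors, are mostly secreted or held at the cell surface, and cut collagens, proteoglycans and other matrix proteins. ADAM proteases sit in the membrane and release the outer part of growth factors, cytokines and receptors. ADAMTS proteases are secreted, bind the matrix through thrombospondin repeats, and cut large proteoglycans such as versican and aggrecan or trim procollagens. In the mammary gland, matrix proteolysis accompanies the branching of ducts and the removal of alveoli after weaning.

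Total raw counts ranged from 18548478 to 26206329 per library, and the floor set for a gene with no reads, 3 counts, is worth 0.114 to 0.162 CPM (counts scaled to library size). Such floors and the intervals below cover counting error only. The epithelial label was checked against markers. Of 15 epithelial markers, 1 had a mean of at least 1 CPM (Krt14), 6 had 0 counts in every library (Epcam, Krt5, Krt18, Krt19, Cldn4 and Esrp1), and the cadherin Cdh1 was at 0.194 and 0.105 CPM in PM2.5, against 0.158 and 0.0775 CPM in Control. Their summed level was 22.4 and 21.4 CPM in PM2.5, against 53.7 and 51.7 CPM in Control, nearly all of it Krt14. Of the 2 that were tested, Krt14 was lower in PM2.5 (log2 fold change -1.4, edgeR adjusted p = 1.12e-06). Grhl2, with at most 1.0 CPM in a library, was higher (log2 fold change 2.11, edgeR adjusted p = 0.0149). Of 15 fibroblast or mesenchymal markers, 13 reached 1 CPM, with sums of 4947 and 5148 CPM in PM2.5, against 6337 and 6201 CPM in Control. Of the 13 that were tested, 4 were higher and 7 lower, and their part in the results below was not tested. None of 8 endothelial markers reached 1 CPM. Apart from Krt14, the epithelial markers were thus absent or low, at no more than 1.05 CPM in any library. The cells are called here by the name of the line. In such bulk libraries, a lower share of expressing cells and less RNA per cell cannot be told apart.

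Mmp13, Mmp9, Adamts4, Mmp28, Mmp10 and Mmp3 rose most among the members that were called higher, while Mmp16, Adamts1, Adamtsl5, Adamts9 and Adamts5 fell most among those called lower. Of the 81 members, 34 had enough counts to be tested. Of these, 14 were higher and 7 were lower in PM2.5 (an adjusted p under 0.05 in the quasi-likelihood test of edgeR), which is 41.2% and 20.6% of the tested members. Over all 12478 genes tested, 19.2% were higher and 20.4% lower, together 39.6%. With scaling to library size only, all genes split into 3074 higher and 1882 lower, against 2400 and 2545 here, while the members stayed at 14 and 7. The median log2 fold change was 0.11 over the tested members and 0.01 over all tested genes. The members had been chosen by name, and being tested depends on the counts, so this is a description of 34 genes and not of all 81. The PM2.5 libraries both lay above both Control libraries in 17 tested members and both below in 11, where such separation was seen in 35.9% and 35.1% of all tested genes.

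**Figure D1:**
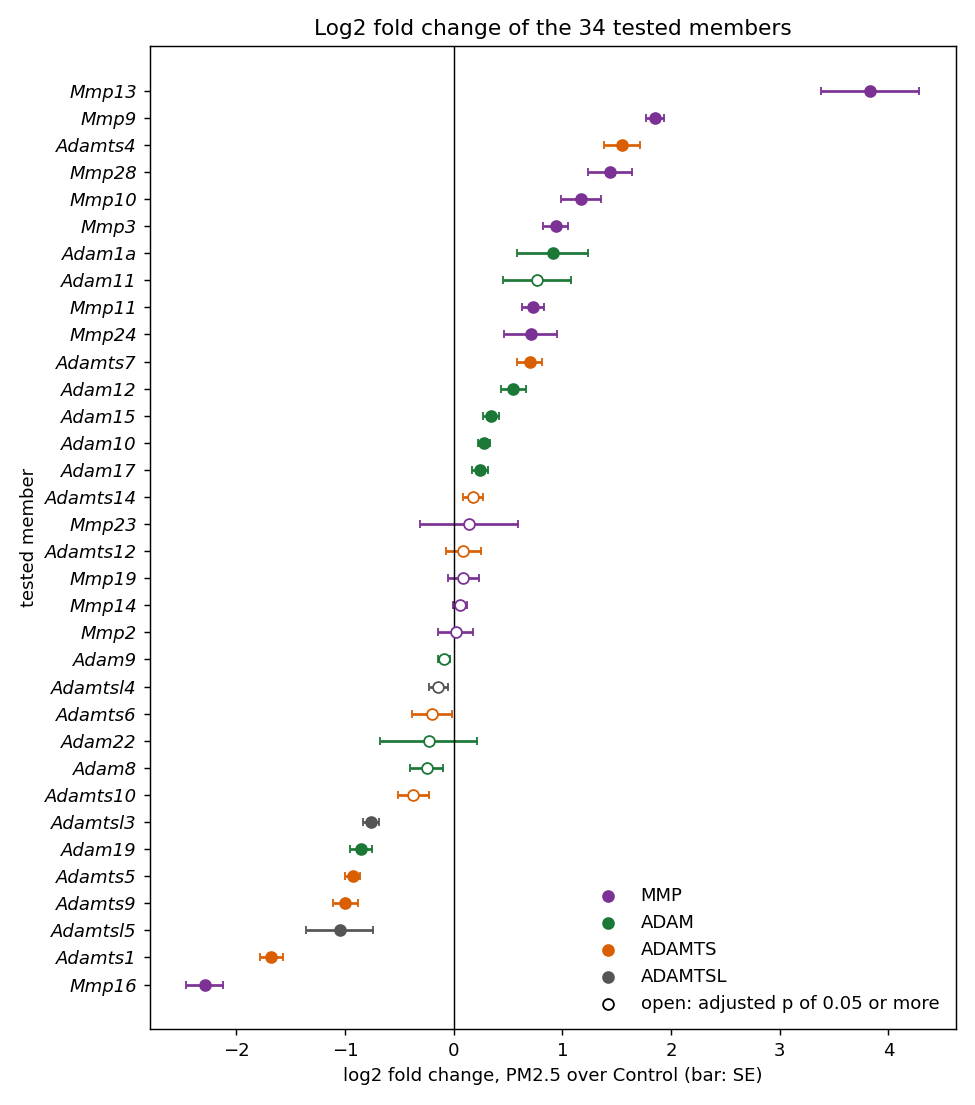
Log2 fold change of PM2.5 over Control with its standard error for the 34 tested members, coloured by family; filled points passed the adjusted p threshold of 0.05. Values run from 3.83 for Mmp13 to -2.29 for Mmp16, and 13 members, among them Mmp14 and Adam9, are open points.

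By family, 7 of 12 tested MMP genes were higher and 1 lower, with a median log2 fold change of 0.72. Of the 10 ADAM genes tested 5 were higher and 1 lower (median 0.26), of the 9 ADAMTS genes 2 were higher and 3 lower (median -0.20), and of the 3 ADAMTSL genes 0 were higher and 2 lower (median -0.76). Changes above 2-fold were found in 5 members called higher and 4 called lower; over all genes 4.63% and 1.16% were called with such a change. Mmp14, the member with the highest RPKM (reads scaled to gene length and library depth) in each library, did not pass the test, and the largest rise, that of Mmp13, was in a gene near the floor in Control.

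The collagenase Mmp13 and the stromelysins Mmp3 and Mmp10 lie in a row of 10 Mmp genes on chromosome 9, and all 3 rose. They are the tested genes of that row. Their start-site sequences are shown because each holds a single copy of the AP-1 site, the target of FOS and JUN dimers, close to the annotated start. The sequences are the 100 bases before the start, plus strand, from RefSeq on GRCm38.p6, with the AP-1 match in capitals.

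Mmp13, chr9:7272414-7272513: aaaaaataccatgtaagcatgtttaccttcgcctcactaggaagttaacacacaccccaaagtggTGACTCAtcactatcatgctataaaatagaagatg
Mmp3, chr9:7445722-7445821: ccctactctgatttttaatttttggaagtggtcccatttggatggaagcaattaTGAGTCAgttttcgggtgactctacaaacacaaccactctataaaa
Mmp10, chr9:7502242-7502341: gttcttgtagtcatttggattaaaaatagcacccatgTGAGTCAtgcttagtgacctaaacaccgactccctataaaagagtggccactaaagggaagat

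The match TGANTCA, searched on both strands from 250 bases before to 50 after the start, begins 35, 46 and 63 bases before the start of Mmp13, Mmp3 and Mmp10. Each of the 3 windows also holds a single TATAAA, which does not overlap the AP-1 match. The table held promoters for 50 of the 81 members and for 22 of the 34 tested ones. Among these 22, 4 held TGANTCA: the 3 genes above and Adam19, which was lower in PM2.5. TGANTCA was present in 7.81% of the 32851 promoters in the table and TATAAA in 13.6%, TATAAA also in Adamts1, a lower member. The core sequence bound by the aryl hydrocarbon receptor, GCGTG on either strand, was present in 32.4% of all promoters, in 4 of 10 higher members with a promoter and in 4 of 5 lower ones. These matches describe letters in a window and were not tested for use.

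Mmp13, which cleaves fibrillar collagen (ENSMUSG00000050578, chromosome 9, 7272514 to 7283331, plus strand, on GRCm39 as for every gene position given), had 46 and 58 counts in the PM2.5 libraries, against 5 and 3 in the Control libraries. That is 2.23 and 3.05 CPM in PM2.5, against 0.263 and 0.116 CPM in Control. The groups were far apart, and Mmp13 was the only tested member with under 10 counts in both libraries of a group, so it entered the test through its PM2.5 libraries. Its log2 fold change was 3.83 (SE 0.45, edgeR adjusted p = 0.000115). This SE is below the counting error alone, 0.529 on the log2 scale, and the scaled ratio of summed counts was 14.7 with an exact 95% counting interval of 7.19 to 35.0. The log2 fold change was 3.29 without Control replicate 2 and 4.43 without Control replicate 1.

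Mmp3, stromelysin 1 (ENSMUSG00000043613, chromosome 9, 7445822 to 7455975, plus strand), acts on proteoglycans and can activate other MMP precursors. It had 61.0 and 73.4 CPM in PM2.5, against 30.7 and 38.9 CPM in Control, a change of 0.94 ± 0.114 on the log2 scale (SE; edgeR adjusted p = 0.000139). Mmp10, stromelysin 2 (ENSMUSG00000047562, chromosome 9, 7502353 to 7510241, plus strand), had 6.20 and 6.85 CPM in PM2.5, against 3.05 and 2.75 CPM in Control, a change of 1.17 ± 0.184 on the log2 scale (SE; edgeR adjusted p = 0.000717). In both genes the lower PM2.5 library lay above the higher Control library. Genes that lie together on a chromosome can move together, so the median log2 fold change of the 25 tested genes on each side is given beside results it touches. With this median taken off, 12 members were called higher and 8 lower, against a background of 16.1% and 16.1% of all tested genes. The median was -0.02 for Mmp13, -0.01 for Mmp3 and -0.01 for Mmp10, and relative to these neighbours the 3 genes were higher by 3.85, 0.95 and 1.18 on the log2 scale.

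The other genes of the row were too low to be tested. Mmp27 had 8 and 4 counts in PM2.5, against 1 and 1 in Control, and Mmp1b had 7 and 6 counts in PM2.5, against 2 and 3 in Control. The counting interval of the PM2.5 over Control ratio was 1.51 to 62.4 for Mmp27 and 0.984 to 10.5 for Mmp1b. In a fit of all genes with no filter, neither passed (edgeR adjusted p = 0.103 and 0.29). Mmp1b has a close paralogue in the same row, Mmp1a, with 0 counts in every library, and overlaps Mmp12 on the other strand, so its counts are uncertain. Mmp12, the macrophage elastase, had 0 and 1 counts in PM2.5, against 0 and 0 in Control, Mmp8, the neutrophil collagenase, had at most 2 counts in a library, and Mmp7 had none.

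**Figure D2:**
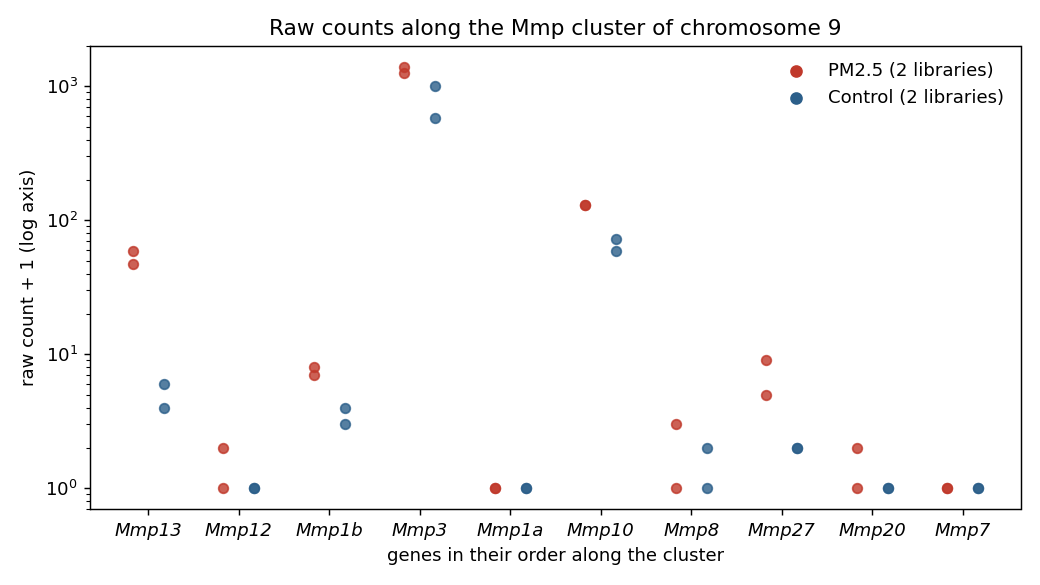
Raw count plus 1 on a log axis for the 10 Mmp genes of the chromosome 9 row in their order, in 2 PM2.5 libraries and 2 Control libraries. Mmp3, Mmp10 and Mmp13 carry most of the counts and their PM2.5 libraries lie above their Control libraries, while Mmp1a and Mmp7 have none.

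The gelatinase gene Mmp9 rose 3.61-fold. Mmp9 (ENSMUSG00000017737, chromosome 2, 164782700 to 164797770, plus strand) encodes gelatinase B, which degrades type IV collagen and gelatin and is known from neutrophils, macrophages and invading cells. It had 2064 and 2226 counts in PM2.5, against 565 and 786 in Control, or 99.99 and 117 CPM in PM2.5, against 29.7 and 30.5 CPM in Control. The Control libraries differed little from each other and lay far below both PM2.5 libraries. The log2 fold change was 1.85 (SE 0.0852, edgeR adjusted p = 2.54e-07), and 1.71 relative to its chromosomal neighbours. The neutrophil markers Ly6g, Mpo and Csf3r had 0 counts in every library, and the 7 neutrophil markers summed to 2.66 and 2.05 CPM in PM2.5, against 0.526 and 0.504 CPM in Control, mostly S100a8. The neutrophil sum thus differed in the same direction as Mmp9, and its part in that result was not tested. Of 10 macrophage markers, 3 reached 1 CPM, with sums of 68.4 and 75.4 CPM in PM2.5, against 64.9 and 75.4 CPM in Control. Most of that sum was Cd14, which did not pass the test (52.3 and 57.6 CPM in PM2.5, against 55.9 and 65.3 CPM in Control; edgeR adjusted p = 0.208). Cd68, a lysosomal glycoprotein gene, was the 1 of 3 tested macrophage markers that rose, with 9.01 and 10.3 CPM in PM2.5, against 3.63 and 4.22 CPM in Control (log2 fold change 1.29, edgeR adjusted p = 0.000179), and its part in the Mmp9 result was not tested either. Lyz2 did not pass (edgeR adjusted p = 0.119). The macrophage integrin gene Itgam was at 0 and the pan-leukocyte gene Ptprc had at most 0.158 CPM. Mmp2, gelatinase A, did not follow Mmp9: it had 11 and 13.1 CPM in PM2.5, against 9.83 and 13.6 CPM in Control, and the groups overlapped (log2 fold change 0.02, SE 0.162, edgeR adjusted p = 0.94).

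Mmp11 and Mmp28, secreted members with less studied substrates, rose. Mmp11, stromelysin 3 (ENSMUSG00000000901, chromosome 10, 75759056 to 75772330, minus strand), is activated inside the cell by furin. It had 22.96 and 25.9 CPM in PM2.5, against 14.1 and 15.3 CPM in Control, with no overlap and a change of 0.73 ± 0.103 on the log2 scale (SE; edgeR adjusted p = 0.00037). Mmp28, epilysin (ENSMUSG00000020682, chromosome 11, 83331594 to 83353897, minus strand), had 5.47 and 5.32 CPM in PM2.5, against 2.05 and 1.94 CPM in Control. The replicates of each group were close, and the log2 fold change was 1.44 (SE 0.205, edgeR adjusted p = 0.000392). Its neighbours had a median of -0.18, and relative to them its log2 fold change was 1.62. Mmp19 had 8.62 and 10.6 CPM in PM2.5, against 8.46 and 9.54 CPM in Control (edgeR adjusted p = 0.671), and Mmp23 stayed under 1 CPM in every library (edgeR adjusted p = 0.835).

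The membrane-bound MMPs went different ways. Mmp14, membrane-type 1 MMP, cleaves collagen at the cell surface and activates the precursor of Mmp2. It had 81.0 and 82.3 RPKM in PM2.5, against 72.3 and 81.5 RPKM in Control. As CPM this was 438 and 443 in PM2.5, against 396 and 446 in Control, and the groups overlapped (log2 fold change 0.06, SE 0.0642, edgeR adjusted p = 0.464). Mmp16, membrane-type 3 MMP (ENSMUSG00000028226, chromosome 4, 17852893 to 18119145, plus strand), fell to 2.08 and 2.69 CPM in PM2.5, against 11.7 and 11.6 CPM in Control. The PM2.5 libraries held 43 and 51 counts of it, against 223 and 300 in Control. This is the largest fall among the tested members, with a change of -2.29 ± 0.17 on the log2 scale (SE; edgeR adjusted p = 7.36e-06). Mmp16 lies in a lowered stretch, where the neighbours had a median of -0.43, and its log2 fold change relative to them was -1.87 (edgeR adjusted p = 3.14e-05).

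Mmp24, membrane-type 5 MMP (ENSMUSG00000027612, chromosome 2, 155617262 to 155660286, plus strand), had 6.54 and 5.11 CPM in PM2.5, against 4.52 and 2.75 CPM in Control, a change of 0.71 ± 0.244 on the log2 scale (SE; edgeR adjusted p = 0.0394). The groups did not overlap, but the call ended without Control replicate 2 (edgeR adjusted p = 0.233), without PM2.5 replicate 1 (0.202) and relative to the chromosomal neighbours (0.112). Mmp24 also overlaps Mmp24os1 on the opposite strand, which had 3596 and 3167 counts in PM2.5, against 2421 and 3062 in Control, and was called higher too (log2 fold change 0.47). Whether counting used strand is not given in the sources used here, so reads of these genes may not be separated. The same holds for Adamts7 with Tbc1d2b, Adam17 with Iah1, Mmp28 with 1700020L24Rik and Mmp11 with Chchd10, of which Tbc1d2b, Iah1 and 1700020L24Rik did not pass the test (edgeR adjusted p = 0.34, 0.223 and 0.0985).

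**Figure D3:**
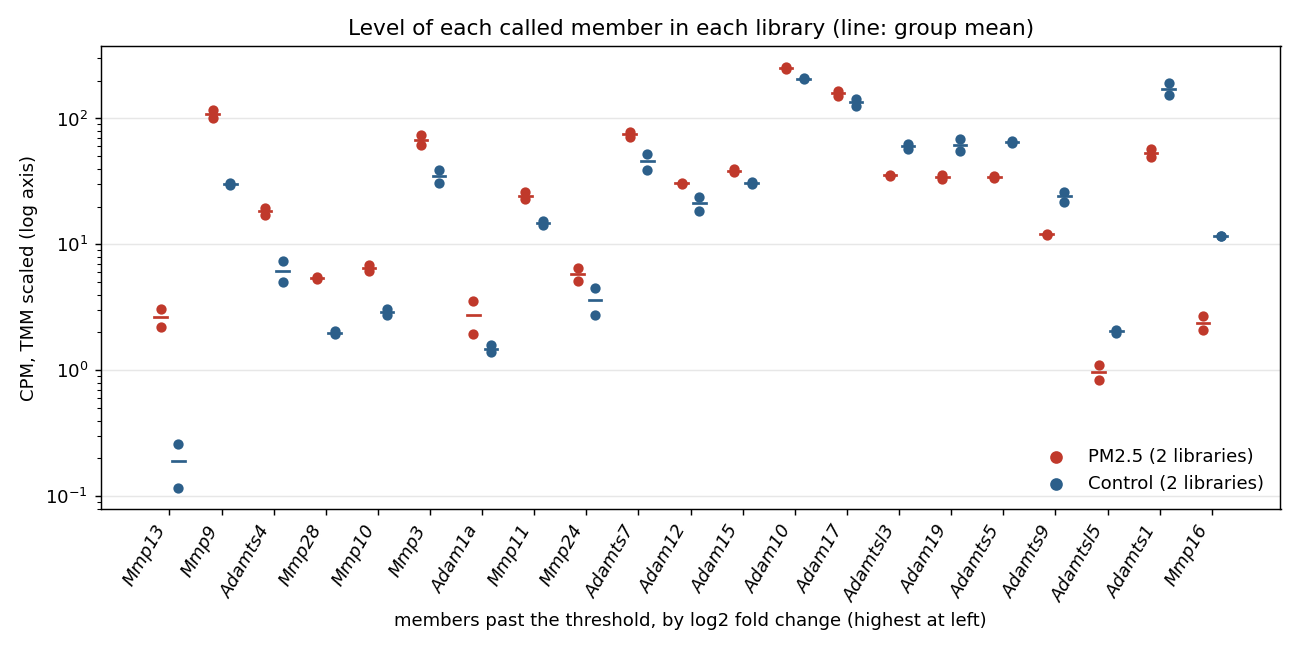
CPM of each of the 21 called members in each library on a log axis, with the group mean as a line; PM2.5 is left of Control for each gene. The libraries of the groups do not overlap for any of the 21, which were picked by the test on these same libraries. Among all tested genes 35.9% lay above and 35.1% below Control without overlap. The gap is widest for Mmp13 at the left and Mmp16 at the right.

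Among the ADAM genes, the principal sheddases Adam10 and Adam17 were slightly higher and Adam19 was lower. Adam10 (ENSMUSG00000054693, chromosome 9, 70586279 to 70687511, plus strand) makes the first membrane cut in Notch receptors and sheds many adhesion molecules. It had 249.2 and 256.3 CPM in PM2.5, against 206 and 209 CPM in Control. Replicates differed by far less than the groups, and the log2 fold change was 0.28 (SE 0.0533, edgeR adjusted p = 0.00201). Adam17 (ENSMUSG00000052593, chromosome 12, 21373510 to 21423633, minus strand) releases tumour necrosis factor and ligands of the EGF receptor. It had 152 and 166 CPM in PM2.5, against 126 and 144 CPM in Control, a change of 0.24 ± 0.0742 on the log2 scale (SE; edgeR adjusted p = 0.0279). That call ended without Control replicate 1 (edgeR adjusted p = 0.14) and without PM2.5 replicate 2 (0.198).

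Adam15, which binds integrins (ENSMUSG00000028041, chromosome 3, 89245849 to 89257303, minus strand), had 37.4 and 39.8 CPM in PM2.5, against 31.3 and 29.9 CPM in Control, a change of 0.34 ± 0.0745 on the log2 scale (SE; edgeR adjusted p = 0.00516). Adam12 (ENSMUSG00000054555, chromosome 7, 133484928 to 133833875, minus strand), a protease of mesenchymal and tumour-associated cells, had 31.0 and 30.3 CPM in PM2.5, against 23.9 and 18.5 CPM in Control. Its log2 fold change was 0.55 (SE 0.113, edgeR adjusted p = 0.00361) and depended on the Control library, at 0.35 without Control replicate 2 and 0.73 without Control replicate 1. Adam19, meltrin beta, a sheddase of neuregulin (ENSMUSG00000011256, chromosome 11, 45946819 to 46038170, plus strand), fell to 35.3 and 33.3 CPM in PM2.5, against 69.2 and 55.1 CPM in Control. Both PM2.5 libraries were below both Controls, with a change of -0.85 ± 0.102 on the log2 scale (SE; edgeR adjusted p = 0.000127), or -0.68 relative to neighbours that were themselves lower, at -0.18.

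Adam9, a widely expressed sheddase ranked 3 among all members by RPKM in each group, with 32.0 and 32.2 in PM2.5, against 33.7 and 33.5 in Control, did not pass (log2 fold change -0.09, SE 0.0543, edgeR adjusted p = 0.228). Adam8, known from leukocytes, had 6.98 and 7.22 CPM in PM2.5, against 7.57 and 9.23 CPM in Control, and did not pass either (edgeR adjusted p = 0.208). Of the ADAM genes without catalytic activity, Adam11 had 1.84 and 1.58 CPM in PM2.5, against 0.946 and 1.05 CPM in Control (edgeR adjusted p = 0.0729), and Adam22 stayed under 1 CPM throughout (adjusted p = 0.708). Adam1a, a fertilin subunit known from male germ cells (ENSMUSG00000072647, chromosome 5, 121656639 to 121660134, minus strand), had 74 and 37 counts in PM2.5, against 30 and 36 in Control, and was only just called (log2 fold change 0.91, SE 0.328, edgeR adjusted p = 0.0477). PM2.5 replicate 1 decided this: without it the log2 fold change was 0.39 (edgeR adjusted p = 0.525). The call also ended without Control replicate 1 (edgeR adjusted p = 0.07) or Control replicate 2 (0.132). Adam1a has a close copy, Adam1b, and overlaps Tmem116 on the other strand, which was called higher with a log2 fold change of 0.79. On the same strand Adam1a overlaps Gm42878, with 48 and 42 counts in PM2.5, against 36 and 59 in Control (edgeR adjusted p = 0.769). The counts of Adam1a are thus uncertain.

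ADAMTS proteases that cleave proteoglycans moved in opposite directions: Adamts4 rose while Adamts1, Adamts5 and Adamts9 fell. Adamts1 (ENSMUSG00000022893, chromosome 16, 85590715 to 85600001, minus strand), which cleaves versican and aggrecan, fell to 57.4 and 49.8 CPM in PM2.5, against 191 and 152 CPM in Control. The Control libraries differed from each other, by less than the gap to PM2.5, and the log2 fold change was -1.68 (SE 0.105, edgeR adjusted p = 2.21e-06). Adamts5, an aggrecan-cleaving protease (ENSMUSG00000022894, chromosome 16, 85653061 to 85698716, minus strand), lies 53.1 kb away. It had 34.9 and 33.8 CPM in PM2.5, against 66.5 and 64.5 CPM in Control, a change of -0.93 ± 0.0677 on the log2 scale (SE; edgeR adjusted p = 6.73e-06). Neighbours of this pair had medians of -0.13 and -0.14, and relative to them Adamts1 and Adamts5 stood at -1.55 and -0.79 on the log2 scale.

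Adamts9, which also cleaves versican (ENSMUSG00000030022, chromosome 6, 92749680 to 92920473, minus strand), had 12.2 and 11.9 CPM in PM2.5, against 21.9 and 26.2 CPM in Control. Its log2 fold change was -1.0 (SE 0.115, edgeR adjusted p = 9.46e-05) with a neighbour median of 0.00. Adamts4, aggrecanase 1 (ENSMUSG00000006403, chromosome 1, 171077990 to 171088206, plus strand), had 19.5 and 17.3 CPM in PM2.5, against 4.99 and 7.40 CPM in Control. Both PM2.5 libraries were above both Controls, and the log2 fold change was 1.55 (SE 0.165, edgeR adjusted p = 6.21e-05). In RPKM, Adamts1 stood 2.76 and 2.71 times as high as Adamts4 in the PM2.5 libraries, against 35.9 and 19.3 times in the Control libraries.

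Adamts7, which cleaves cartilage oligomeric matrix protein (ENSMUSG00000032363, chromosome 9, 90045122 to 90090124, plus strand), had 71.5 and 78.5 CPM in PM2.5, against 39 and 52.6 CPM in Control. The log2 fold change was 0.70 (SE 0.115, edgeR adjusted p = 0.000923). The procollagen peptidase Adamts14 had 52.6 and 52.7 CPM in PM2.5, against 51.8 and 41.9 CPM in Control, and did not pass (log2 fold change 0.18, edgeR adjusted p = 0.163), but without Control replicate 1 it was called higher (log2 fold change 0.33, adjusted p = 0.00529). Adamts10, a fibrillin-binding member, had 10.7 and 14.5 CPM in PM2.5, against 16.2 and 16.2 CPM in Control (log2 fold change -0.37, edgeR adjusted p = 0.0559), and was called lower without PM2.5 replicate 2 (log2 fold change -0.61, adjusted p = 0.00441). Adamts6 and Adamts12 lay at 4.42 to 6.20 CPM in every library and were not called (edgeR adjusted p = 0.415 and 0.688).

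The ADAMTS-like proteins have no protease domain and bind matrix microfibrils. Adamtsl3 and Adamtsl5 were lower in PM2.5. Adamtsl3 (ENSMUSG00000070469, chromosome 7, 81984902 to 82263658, plus strand) had 35.8 and 35.2 CPM in PM2.5, against 57.7 and 62.4 CPM in Control, a change of -0.76 ± 0.0712 on the log2 scale (SE; edgeR adjusted p = 2.8e-05). It fell among neighbours with a median of 0.10. Adamtsl5 (ENSMUSG00000043822, chromosome 10, 80174944 to 80184246, minus strand) had 23 and 16 counts in PM2.5, against 40 and 51 in Control, a change of -1.05 ± 0.309 on the log2 scale (SE; edgeR adjusted p = 0.0211). Its call ended without Control replicate 1 (edgeR adjusted p = 0.0745), Control replicate 2 (0.0552) or PM2.5 replicate 2 (0.162). Adamtsl4, which binds fibrillin, had 25.7 and 28.2 CPM in PM2.5, against 28.4 and 30.9 CPM in Control (edgeR adjusted p = 0.211). Relative to its chromosomal neighbours it was called lower (log2 fold change -0.26, edgeR adjusted p = 0.0388).

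Of the 47 members that were not tested, 25 had 0 counts in every library and 22 had a few. The zeros took in the Adam genes of chromosome 8 named Adam20, Adam24, Adam25, Adam26a, Adam26b, Adam29, Adam34 and Adam39, a set known from testis, the leukocyte gene Mmp25, Mmp15, and the procollagen peptidase Adamts3. For each, a count of 0 allows up to 0.114 to 0.162 CPM, depending on the library. Adamtsl2, which binds latent TGF-beta binding protein, had 23 and 9 counts in PM2.5, against 3 and 5 in Control. Its counts exceeded those of both Controls in both PM2.5 libraries, with a ratio of 4.52 and a counting interval of 2.04 to 11.4. With no filter on low counts it was called higher (log2 fold change 2.11, SE 0.674, edgeR adjusted p = 0.00764). For Mmp9 that fit gave an edgeR adjusted p of 2.63e-114, against 2.54e-07 in the main fit. A call in the fit with no filter is thus weaker evidence than a call in the main fit. No other untested member had 10 or more counts in any library.

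Summed over all members of a family, the MMP genes held 154.9 and 168.9 RPKM in PM2.5, against 108.0 and 122.7 RPKM in Control. The ADAM sum was 124.8 and 129.0 RPKM in PM2.5, against 114.5 and 115.9 RPKM in Control. The ADAMTS sum was 38.6 and 38.4 RPKM in PM2.5, against 56.6 and 51.4 RPKM in Control, and the ADAMTSL sum 10.2 and 10.4 RPKM in PM2.5, against 13.3 and 14.3 RPKM in Control. The libraries of the groups did not overlap in any of these sums, which are descriptions with no test. Among single tested genes, 35.9% lay above and 35.1% below Control without overlap in CPM. The RPKM values were summed as deposited, without the TMM scaling used for CPM and the tests. Within the MMP sum, Mmp14 made up 52.3% and 48.7% in PM2.5, against 66.9% and 66.5% in Control, while Mmp9 made up 16.2% and 17.5% in PM2.5, against 6.79% and 6.15% in Control. By mean RPKM over the libraries of a group, the first 5 members were Mmp14, Adam10, Adam9, Mmp3 and Adam17 in PM2.5, against Mmp14, Adam10, Adam9, Adamts1 and Adam17 in Control. Adamts1 ranked 8 in PM2.5, against 4 in Control, and Mmp9 ranked 6 in PM2.5, against 9 in Control. Mmp3 at 31.6 ± 4.20 RPKM and Adam9 at 32.1 ± 0.167 RPKM (SD, n = 2) did not differ beyond their spread in PM2.5.

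**Figure D4:**
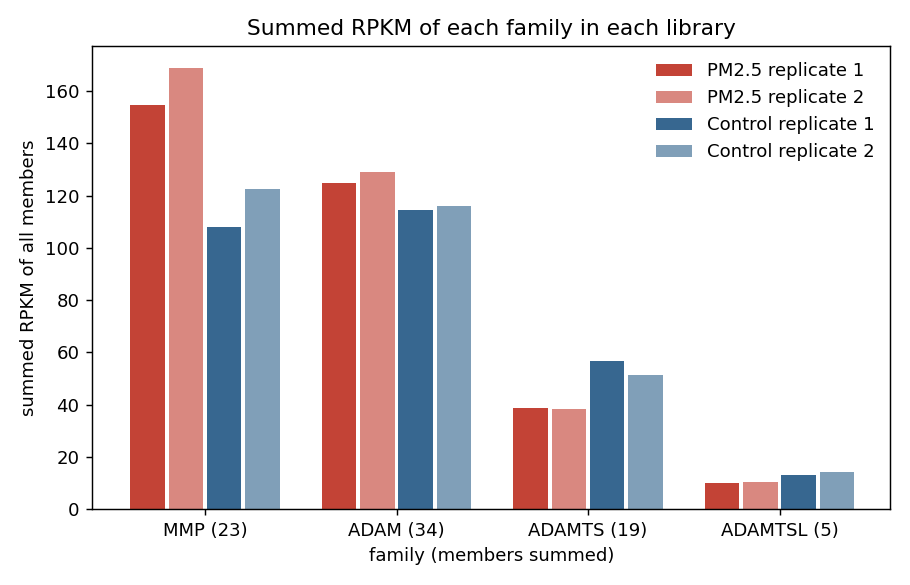
Summed RPKM of all members of each family, a bar for each library, PM2.5 left of Control. The MMP bars are highest in PM2.5, at 154.9 and 168.9, and the ADAMTS bars are lower in PM2.5, at 38.6 and 38.4, than in Control, at 56.6 and 51.4.

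The deposited files also give a second count, called total gene reads, which for each gene equals or exceeds its raw count and is not defined further. The raw count made up a median of 84.6% and 84.4% of it over the tested members in PM2.5, against 87.3% and 86.7% in Control. Over all tested genes the medians were 86.8% and 86.9% in PM2.5, against 88.5% and 87.7% in Control. For Mmp16 the raw count made up 60.6% and 67.1% in PM2.5, against 85.4% and 76.7% in Control, and with total gene reads its log2 fold change was -2.00 (edgeR adjusted p = 3.01e-05). Mmp14 kept a share of 73.4% to 74.2% in every library.

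Genes that act on or with these proteases were taken from 5 lists, chosen with earlier results of these data known. Their counts are descriptions with no test, and a difference from all genes may come from that choice. Over all 5, 29 of 76 tested genes were higher and 11 lower, with a median log2 fold change of 0.12, where 19.2% and 20.4% of all tested genes were called and the median was 0.01. Of 5 tested inhibitors and clearance receptors, 0 were higher and 2 lower (median -0.15). These were Timp3, with 21.95 and 22.91 CPM in PM2.5, against 153 and 149 CPM in Control, and Timp1, with 33.8 and 35.2 CPM in PM2.5, against 51.2 and 44.5 CPM in Control. Both are tissue inhibitors of metalloproteinases, with log2 fold changes of -2.75 (SE 0.068) and -0.47 (SE 0.0826). Timp2 and the membrane inhibitor gene Reck did not pass (edgeR adjusted p = 0.583 and 0.0553), but Reck was called higher relative to its chromosomal neighbours (log2 fold change 0.92, edgeR adjusted p = 0.00252). Of 13 tested activators, chaperones and anchors, 3 were higher and 0 lower, with a median log2 fold change of 0.10. They were the plasminogen activator genes Plau (log2 fold change 1.83, SE 0.169) and Plat (1.10, SE 0.155), and the precursor-cleaving convertase gene Furin (0.29, SE 0.0608). Rhbdf1 and Rhbdf2, which carry Adam17 to the cell surface, did not pass (edgeR adjusted p = 0.116 and 0.234).

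Of 20 tested membrane proteins shed by ADAM proteases, 10 were higher and 1 was lower, with a median log2 fold change of 0.31. The lower gene was the cadherin gene Cdh2 (-0.29, SE 0.0567), whose call ended relative to its chromosomal neighbours (edgeR adjusted p = 0.0707). The chemokine gene Cx3cl1 had 241 and 252 CPM in PM2.5, against 63.9 and 70.5 CPM in Control, and the adhesion molecule gene Vcam1 had 283 and 247 CPM in PM2.5, against 127 and 133 CPM in Control. Both sets of libraries were well apart, with log2 fold changes of 1.87 (SE 0.0658) and 1.03 (SE 0.0705). The interleukin 6 receptor gene Il6ra and the receptor gene Tnfrsf1b were also higher, by 0.66 (SE 0.0693) and 0.53 (SE 0.0613) on the log2 scale. Of 19 tested matrix substrates, 10 were higher and 6 lower, with a median log2 fold change of 0.44. For both lists, the background over all tested genes was 19.2% higher and 20.4% lower. Vcan, which encodes versican, had 43.5 and 50.1 CPM in PM2.5, against 22.1 and 24.3 CPM in Control, a log2 fold change of 1.01 (SE 0.0896), the same in sign as that of Adamts4 and opposite to that of Adamts1, Adamts5 and Adamts9. The type IV collagen genes Col4a1 and Col4a2 were higher, by 0.61 (SE 0.0541) and 0.73 (SE 0.0566), on the log2 scale, and Postn, which encodes the matricellular protein periostin, was lower, at -1.18 (SE 0.0872).

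Of 19 transcription factor genes known from metalloproteinase promoters, all tested, 6 were higher and 2 lower, with a median log2 fold change of 0.12. Over all tested genes, 19.2% were higher and 20.4% lower. The AP-1 subunit gene Jun was lower, with 78.0 and 76.8 CPM in PM2.5, against 148 and 135 CPM in Control (log2 fold change -0.87, SE 0.0646, edgeR adjusted p = 7.51e-06), and Runx2 was lower as well (-0.36, SE 0.0624). Ets2 and Ets1 were higher, by 0.44 (SE 0.0671) and 0.47 (SE 0.0816) on the log2 scale. Relative to their chromosomal neighbours, Jun stood at -0.58, Runx2 at -0.24, Ets2 at 0.62 and Ets1 at 0.50 on that scale. Fosl2 and Fosb, further AP-1 subunit genes chosen after their values were seen, were higher by 0.28 (SE 0.0558) and 1.44 (SE 0.377). Fosb was low, with 1.356 and 1.685 CPM in PM2.5, against 0.420 and 0.659 CPM in Control. Fos, Fosl1, Junb and Jund did not pass (edgeR adjusted p = 0.844, 0.80, 0.215 and 0.747). Junb was called higher relative to its chromosomal neighbours (log2 fold change 0.26, edgeR adjusted p = 0.0154). The other higher genes of the list were the NF-kB subunit genes Nfkb1 (0.31, SE 0.0573) and Relb (0.27, SE 0.0771). The Nfkb1 call ended relative to its chromosomal neighbours (edgeR adjusted p = 0.0567). Rela and Nfkb2 did not pass (edgeR adjusted p = 0.714 and 0.0952).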

How the data were processed

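RNA libraries were made with a stranded polyA ligation kit, per the labels' protocols. The authors deposited a raw count for each gene, not normalized, beside RPKM values that the authors computed. The build is GRCm39, per the submitters' processing notes. The names of the aligner, counting program and gene annotation, and the strand setting, were not given in the sources used here. Members and lists were chosen with earlier results of these data known.

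The counts were analysed with edgeR 4.0.16 in R 4.3.3. Genes were kept by filterByExpr (minimum count 10), which left 12478 genes, and scaled by TMM with factors of 0.973 to 1.024. The quasi-likelihood test compared PM2.5 with Control over all 4 libraries, unpaired, with Benjamini-Hochberg adjustment over all tested genes and a threshold of 0.05. CPM values are TMM scaled. The SE of a log2 fold change is its size over the square root of F. For the value relative to chromosomal neighbours, the fit was repeated with each gene offset by the median log2 fold change of the 25 tested genes on each side.

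Every called member was named, and members not called where they were among the 15 highest by RPKM or had a called relative; other members are given by counts or chosen by known role. From each list up to 4 genes with the smallest p-values were named. Rhbdf2, Timp2, Cdh2, Junb, Jund, the FOS family genes and the NF-kB subunit genes were added after their values were seen. Alternatives were other scalings and filters, DESeq2 1.42.0, limma-voom and limma-trend with limma 3.58.1, total gene reads, a replicate block, and leaving out each library. The fits were also run on simulated counts with few changed genes and the same spread beyond counting error for every gene. Far more genes were called in these data, so that run does not measure the error of these calls.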

Additional observations from a re-analysis of the deposited data

How the results depend on the processing

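Over the 16 alternatives, the members called higher numbered 12 to 15 and those called lower 6 to 8, and the pathway genes 22 to 36 and 9 to 13. Of the 21 called members, 17 were called the same way in every alternative; the exceptions were Mmp24, Adam1a, Adamtsl5 and Adam17. DESeq2 ended the calls on Mmp24, Adam1a and Adamtsl5 (adjusted p = 0.0937, 0.132 and 0.113), and called 1581 of all genes higher. With each library left out in turn, 1516 to 2299 of all genes were higher and 1680 to 2578 lower; the lone library of a group is then assumed to vary like the other group. With the replicate number as a block, 14 members were higher and 8 lower, the added one being Adamts10, as were 34 and 13 pathway genes and 2797 and 2976 of all genes. Deviations of same-numbered libraries correlated at 0.124 over 12478 genes, and the labels state no pairing. Of the other values for single genes, 499 kept their direction and side of the threshold, 23 lost the call and 8 gained one. Signs turned only in members that were not called. With total gene reads Mmp23 was at -0.04, Adam22 at 0.20 and Mmp2 at -0.02, with no filter Mmp2 was at -0.0026, and relative to chromosomal neighbours Mmp14 was at -0.10. With libraries left out, log2 fold changes ranged from -0.19 to 0.68 for Mmp23, -0.55 to 0.29 for Adam22, -0.19 to 0.28 for Mmp2, -0.07 to 0.23 for Mmp19 and -0.02 to 0.15 for Mmp14. On log2(RPKM + 1) that of Mmp13 was 0.79 and on log2(RPKM + 0.1) 2.56, since a pseudocount shrinks low genes. Replicates numbered 2 a group, which limits the precision of every SE.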

Other observations

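Adam5 had 1 and 0 raw counts in PM2.5, against 0 and 0 in Control, but 1388 and 1209 total gene reads in PM2.5, against 1052 and 1521 in Control. Adam7 had 0 raw counts in every library, with 88 and 102 total gene reads in PM2.5, against 100 and 96 in Control. Among the other members with under 10 raw counts in every library, total gene reads reached at most 28, in Adamts13 and Adamts20.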
